A study of Mus musculus with 6 samples.

Results

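The 10 genes described here encode the enzymes that crosslink collagen and elastin or hydroxylate the collagen chains: the lysyl oxidases Lox, Loxl1, Loxl2, Loxl3 and Loxl4, the lysyl hydroxylases Plod1, Plod2 and Plod3, and the prolyl 4-hydroxylase alpha subunits P4ha1 and P4ha2. They were taken by symbol from a table of 23361 gene symbols, in which each of the 10 stood on a single line. The table held RNA-seq values of 6 libraries from cultured mouse small-cell lung cancer (SCLC) cells. The cells, called SCLC metastasizing cells (SMC), were sorted by flow cytometry as NCAM-high and CD44-low or CD44-negative from lung tumours of mice with floxed Rb1 and Trp53 alleles and a mixed strain background. Cre had been given to the lung with an adenovirus, and both groups carry the 2 deletions. Of the 6 libraries, 3 came from cells infected with a control virus (SMC-Ctrl) and 3 from cells infected with a virus for TAZ-4SA (SMC-TAZ-4SA), an activated mutant of TAZ, which is a co-activator that works with the TEAD transcription factors. Infected cells of both groups were selected with puromycin. The comparison asks how overexpressed active TAZ changes the transcripts of these cells. No label says whether the replicates are separate cultures. A p-value here therefore reflects the spread among the libraries at hand, and that spread may be technical.

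Values are FPKM, a fragment number divided by transcript length and by library size. Genes of different length can be set side by side only as far as each was estimated correctly. The tool is not given, and some values here may be failed estimates. Total FPKM ranged from 284422 to 297034 in SMC-Ctrl and from 324938 to 361800 in SMC-TAZ-4SA, and the absolute depth is unknown. Wwtr1, which encodes TAZ, stood at 0.143 ± 0.0329 FPKM (SD, n = 3) in SMC-Ctrl and at 34.5 ± 2.41 FPKM (SD, n = 3) in SMC-TAZ-4SA. Of 6 neuroendocrine SCLC markers (Chga, Syp, Insm1, Calca, Uchl1 and Ncam1) 5 were lower in SMC-TAZ-4SA, among them Chga, which encodes chromogranin A, at 92.7 to 96.8 FPKM in SMC-Ctrl and 0.142 to 0.439 FPKM in SMC-TAZ-4SA. The sort markers Ncam1 and Cd44 were both higher, Ncam1 rising from 21.4 ± 1.18 to 78.5 ± 4.97 FPKM and Cd44 from 0.257 ± 0.0435 to 76.4 ± 2.24 FPKM (SD, n = 3 each). By western blot the study reports less NCAM and more CD44 protein with TAZ-4SA. Its NCAM protein result and the Ncam1 RNA here thus go in opposite directions. The SMC-Ctrl libraries thus carried the neuroendocrine markers of their label, whereas the SMC-TAZ-4SA libraries were lower in 5 of the 6 and high in Cd44. The comparison differed in most of the transcriptome: limma with Benjamini-Hochberg adjustment called 80.3% of the 12141 tested genes at 0.05 (9754), 4939 as higher and 4815 as lower. With libraries scaled to the same total FPKM the split was 3987 higher and 5875 lower.

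Collagen chains are modified before and after secretion. In the endoplasmic reticulum prolyl 4-hydroxylases convert prolines to 4-hydroxyproline, which stabilises the triple helix, and lysyl hydroxylases convert lysines to hydroxylysine. Both kinds of enzyme use iron, oxygen, 2-oxoglutarate and ascorbate. Outside the cell the copper-dependent lysyl oxidases turn lysine and hydroxylysine side chains into aldehydes, from which the covalent crosslinks of collagen and elastin form. In tumours these enzymes are known for their part in stiffening the extracellular matrix.

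All 10 genes were higher in SMC-TAZ-4SA than in SMC-Ctrl, and for none of them did the 3 libraries of one group overlap with those of the other. Lox, Loxl2 and Plod2 moved from below 0.2 FPKM to levels between 90.2 and 351 FPKM. The 4 genes with at least 1 FPKM in every library, Plod1, Plod3, P4ha1 and P4ha2, rose by ratios of the group means between 1.57 and 13.6. By limma, 10 of 10 passed the threshold as higher and 0 as lower, against 40.7% of all tested genes that were higher and 39.7% that were lower. No overlap between the groups, with SMC-TAZ-4SA higher, was found for 41.8% of the tested genes. The median log2 fold change of the 10 was 2.64, beside 0.02 over all tested genes, on the log2(FPKM + 1) scale used for every log2 fold change here. This scale understates the change of genes with low values.

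The filter on low values bears on this count. Testing required 1 FPKM or more in at least 3 of the 6 libraries. The 5 lysyl oxidases and Plod2 stayed below 1 FPKM in every SMC-Ctrl library and met that requirement through SMC-TAZ-4SA alone, so they could not have been called lower. Of the 918 tested genes in that position 917 were called higher. Of the 9857 genes at 1 FPKM or more in all 6 libraries, 3931 (39.9%) were higher, and their median log2 fold change was 0.04. All 4 enzyme genes in that second class were higher, with log2 fold changes from 0.61 to 3.08.

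**Figure D1:**
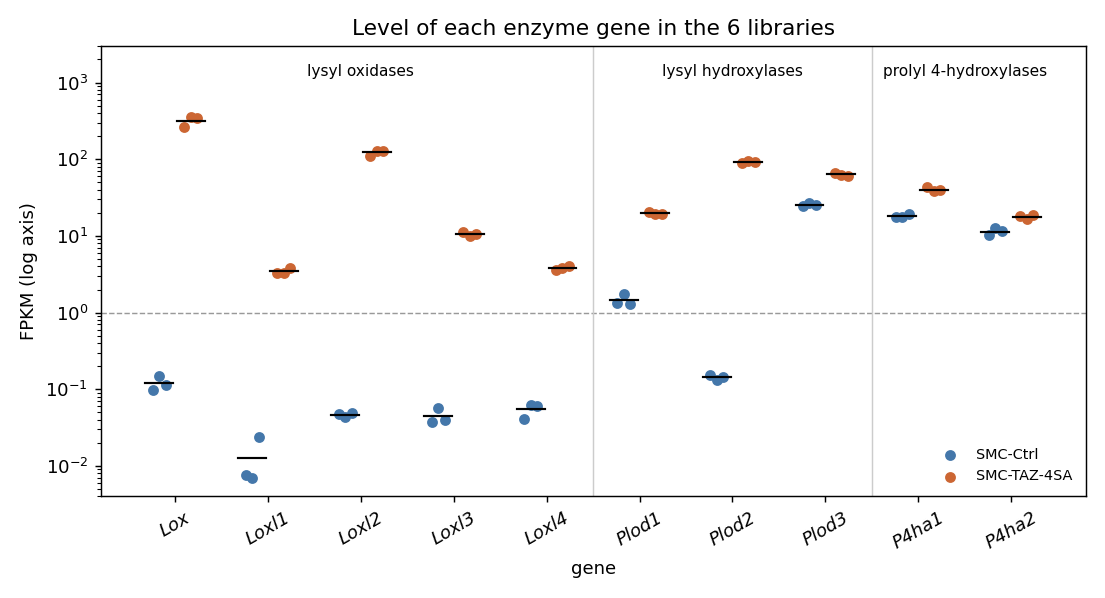
FPKM (log axis) of the 10 enzyme genes in each of the 3 SMC-Ctrl (blue) and 3 SMC-TAZ-4SA (orange) libraries. Points are libraries, black bars are group means, and the dashed line marks 1 FPKM. Lox, Loxl2 and Plod2 cross from below 0.2 FPKM to above 90 FPKM, whereas P4ha2 moves only from 11.4 to 17.9 FPKM on average.

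Lox, the founding member of the lysyl oxidases, acts on fibrillar collagen and elastin. Its gene (ENSMUSG00000024529.14) lies on the minus strand at chr18:52516067-52529867 of GRCm38. Lox was at 0.0989, 0.149 and 0.113 FPKM in SMC-Ctrl replicates 1 to 3 and at 260.4, 351 and 344 FPKM in SMC-TAZ-4SA replicates 1 to 3. SMC-TAZ-4SA replicate 1 was the lowest of its group, and its value was 1750 times that of the highest SMC-Ctrl library. The group means were 0.120 ± 0.0257 and 318 ± 50.4 FPKM (SD, n = 3 each), a ratio of 2647. The log2 fold change was 8.14 (SE 0.11, 95% interval 7.88 to 8.41; limma adjusted p = 3.51e-10), the 15th largest of the 12141 tested genes. In SMC-TAZ-4SA, Lox ranked 98th by mean FPKM among the tested genes.

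Loxl2, an oxidase with scavenger receptor domains that also acts on type IV collagen of basement membranes, lies at chr14:69609068-69695834 (ENSMUSG00000034205.16, plus strand). Loxl2 was at 0.0476, 0.0435 and 0.0492 FPKM in SMC-Ctrl and at 110.2, 129.9 and 127 FPKM in SMC-TAZ-4SA. As for Lox, SMC-TAZ-4SA replicate 1 was the lowest of its group. The log2 fold change of Loxl2 was 6.88 (SE 0.08, 95% interval 6.70 to 7.05; limma adjusted p = 1.57e-10), the 30th largest. The Lox to Loxl2 ratio of FPKM was 2.08 to 3.42 in SMC-Ctrl and 2.36 to 2.71 in SMC-TAZ-4SA. The ranges thus overlapped (difference of means -0.0103, exact permutation p = 1, 2-sided, n = 3 each). In SMC-Ctrl the ratio rests on values of at most 0.149 FPKM for Lox and 0.0492 FPKM for Loxl2. No constancy of the ratio is therefore read from the overlap.

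Loxl3, an oxidase required for palate and spine development in mice, reached 11.1, 9.90 and 10.5 FPKM in SMC-TAZ-4SA from 0.0379, 0.0577 and 0.0396 FPKM in SMC-Ctrl (chr6:83034173-83052562, ENSMUSG00000000693.10). Its log2 fold change was 3.46 (SE 0.06; limma adjusted p = 8.17e-10). Loxl3 shares 1297 bp with Htra2 on the opposite strand, and Htra2 itself stood at 7.59 FPKM in SMC-Ctrl and 36.6 FPKM in SMC-TAZ-4SA. Whether counting used strand is not given in the sources used here, so without it fragments of the shared stretch cannot be told apart.

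Loxl4 and Loxl1 were the lowest lysyl oxidases in SMC-TAZ-4SA. Loxl4 (chr19:42593982-42612813, ENSMUSG00000025185.14) was at 0.0407, 0.0620 and 0.0608 FPKM in SMC-Ctrl and at 3.54, 3.87 and 4.08 FPKM in SMC-TAZ-4SA, with a log2 fold change of 2.19 (SE 0.06; limma adjusted p = 7.00e-09). Loxl1, which is tied to elastic fibre upkeep in mice, lies at chr9:58287738-58313186 (ENSMUSG00000032334.10). Loxl1 was at 0.00769, 0.00705 and 0.0239 FPKM in SMC-Ctrl and at 3.30, 3.30 and 3.84 FPKM in SMC-TAZ-4SA, a log2 fold change of 2.14 (SE 0.06; limma adjusted p = 1.13e-08). After correction for relative depth the SMC-Ctrl values of Loxl1 were 1, 1 and 3 times a common step, within 1%, so no ratio of means is given for it. In SMC-TAZ-4SA the ranges of Loxl4 and Loxl1 overlapped, and Lox, Loxl2 and Loxl3 each stood clear of their neighbours in the order of levels.

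**Figure D2:**
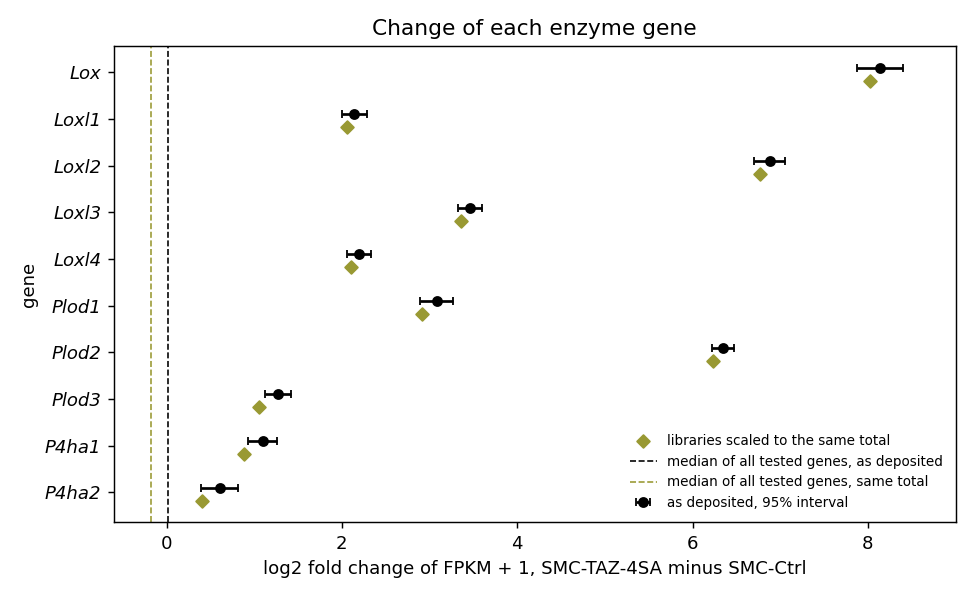
Log2 fold change (SMC-TAZ-4SA minus SMC-Ctrl, log2(FPKM + 1) scale) of each enzyme gene as deposited, with 95% limma intervals (black), and after scaling the libraries to the same total FPKM (diamonds). Dashed lines are the medians of all tested genes, 0.02 and -0.18. All 10 genes lie to the right of both medians, with P4ha2 nearest to them at 0.61 as deposited and 0.40 after scaling.

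Of the lysyl hydroxylases, Plod2 changed most. Plod2 encodes the enzyme known to hydroxylate lysines of the collagen telopeptides, the site that sets the chemical type of crosslink formed later (chr9:92542223-92608428, plus strand, ENSMUSG00000032374.14). Plod2 was at 0.153, 0.134 and 0.144 FPKM in SMC-Ctrl and at 90.2, 94.8 and 91.7 FPKM in SMC-TAZ-4SA. The spread within each group was small against the difference between them, with SDs of 0.00968 and 2.38 FPKM. The ratio of means was 641 and the log2 fold change 6.35 (SE 0.06, 95% interval 6.22 to 6.48; limma adjusted p = 6.64e-11), the 41st largest.

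Plod1, which acts on lysines within the triple helix, was already above 1 FPKM in SMC-Ctrl (chr4:147909753-147936767, minus strand, ENSMUSG00000019055.15). Plod1 was at 1.33, 1.73 and 1.31 FPKM in SMC-Ctrl and at 20.7, 19.1 and 19.4 FPKM in SMC-TAZ-4SA, a ratio of means of 13.6 and a log2 fold change of 3.08 (SE 0.08; limma adjusted p = 7.05e-09). Plod3, a lysyl hydroxylase that also carries glycosyltransferase activity, was the highest of the 10 genes in SMC-Ctrl (chr5:136987019-136996648, plus strand, ENSMUSG00000004846.10). Plod3 was at 24.8, 27.1 and 24.9 FPKM in SMC-Ctrl and at 65.9, 63.0 and 60.7 FPKM in SMC-TAZ-4SA, with a log2 fold change of 1.27 (SE 0.06; limma adjusted p = 3.75e-07). Plod3 overlaps Znhit1 on the opposite strand by 1003 bp, and Znhit1 stood at 30.8 and 32.0 FPKM in the 2 groups.

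The prolyl 4-hydroxylase subunits changed least among the 10. P4ha1, the main catalytic alpha subunit in most cell types, was at 17.8, 17.6 and 19.4 FPKM in SMC-Ctrl and at 43.1, 38.3 and 39.1 FPKM in SMC-TAZ-4SA (chr10:59323296-59373304, plus strand, ENSMUSG00000019916.14). Its ratio of means was 2.20 and its log2 fold change 1.10 (SE 0.07, 95% interval 0.93 to 1.26; limma adjusted p = 1.62e-06). P4ha2, the alternative alpha subunit, was at 10.2, 12.6 and 11.4 FPKM in SMC-Ctrl and at 18.4, 16.4 and 18.8 FPKM in SMC-TAZ-4SA (chr11:54100095-54131665, plus strand, ENSMUSG00000018906.14). The lowest SMC-TAZ-4SA library of P4ha2 was 1.30 times the highest SMC-Ctrl library. Its ratio of means was 1.57 and its log2 fold change 0.61 (SE 0.09, 95% interval 0.40 to 0.82; limma adjusted p = 3.45e-04). As deposited, P4ha2 was the only one of the 10 whose log2 fold change was below 1. P4ha1 was at 0.89, 0.95 and 0.97 with the same total, the same upper quartile and quantile normalization, so it too fell short of 1 there. Of all tested genes 15.5% were called higher with a log2 fold change of at least 1, but 6 of the 9 enzyme genes that reached it were tested through SMC-TAZ-4SA alone, in a class whose median was 2.26, and nothing is read from their number.

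The order of the 10 genes by level differed between the groups. In SMC-Ctrl it ran Plod3, P4ha1, P4ha2, Plod1, Plod2, Lox, Loxl4, Loxl2, Loxl3 and Loxl1 from the top, with overlapping ranges for Plod2 and Lox and among Loxl4, Loxl2 and Loxl3. In SMC-TAZ-4SA it ran Lox, Loxl2, Plod2, Plod3, P4ha1, Plod1, P4ha2, Loxl3, Loxl4 and Loxl1, with overlap only between the last pair. The 3 genes at the top in SMC-TAZ-4SA were thus all below 0.2 FPKM in SMC-Ctrl.

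Summed over each family, lysyl oxidase FPKM went from 0.280 ± 0.0436 in SMC-Ctrl to 459 ± 61.0 in SMC-TAZ-4SA (SD, n = 3 each). Lysyl hydroxylase FPKM went from 27.2 ± 1.52 to 175 ± 2.89, and prolyl 4-hydroxylase FPKM from 29.7 ± 1.48 to 58.0 ± 3.41. None of the sums overlapped between groups, and each gave an exact 2-sided permutation p = 0.1, the smallest that 3 against 3 libraries allow. The same smallest p held for every share below. Because a share compares genes within a library, multiplying a library by a factor does not alter it. Shares were not computed after quantile normalization.

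Plod3 led the lysyl hydroxylases in SMC-Ctrl and Plod2 in SMC-TAZ-4SA. Plod3 held 93.6% to 94.5% of the family's FPKM in the SMC-Ctrl libraries and 35.3% to 37.3% in SMC-TAZ-4SA. Plod2 held 0.462% to 0.583% in SMC-Ctrl and 51.0% to 53.6% in SMC-TAZ-4SA, and the mean share of Plod1 went from 5.32% to 11.3%. Within the lysyl oxidases, Lox went from 42.9% ± 3.58 to 69.2% ± 1.94 and Loxl2 from 17.1% ± 3.40 to 26.8% ± 1.34 (SD, n = 3 each). The mean shares of Loxl3, Loxl4 and Loxl1 were 16.1%, 19.4% and 4.61% in SMC-Ctrl and 2.33%, 0.841% and 0.766% in SMC-TAZ-4SA. The SMC-Ctrl shares of this family rest on values below 0.15 FPKM. Between the prolyl 4-hydroxylase subunits P4ha1 went from 61.6% ± 2.98 to 69.2% ± 1.48.

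**Figure D3:**
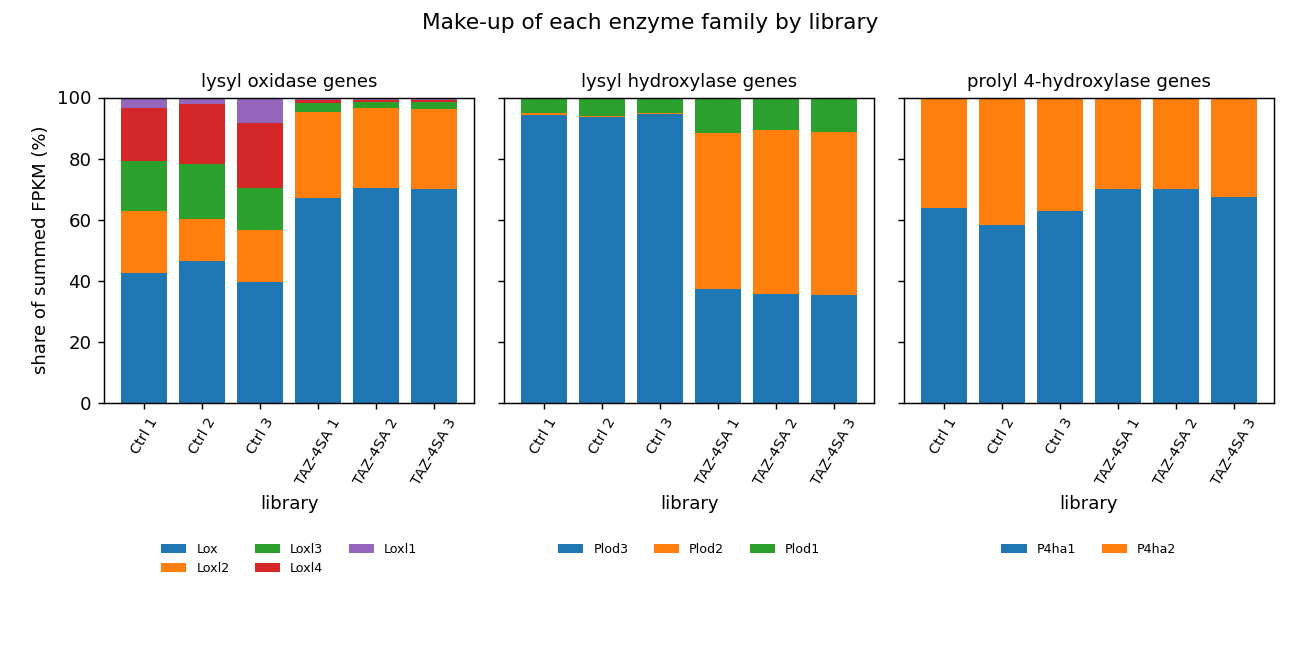
Share of each family's summed FPKM (%) held by each member in the 3 SMC-Ctrl and 3 SMC-TAZ-4SA libraries, as stacked bars from 0 to 100%. Plod2 takes more than 51% of lysyl hydroxylase FPKM in each SMC-TAZ-4SA library and under 0.6% in each SMC-Ctrl library, and Lox with Loxl2 make up most of the lysyl oxidase FPKM in SMC-TAZ-4SA.

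Another alpha subunit, P4ha3, is not among the 10 and was singled out after its values were seen. P4ha3 was at 0.0229, 0.0524 and 0.0118 FPKM in SMC-Ctrl and at 17.9, 18.7 and 18.3 FPKM in SMC-TAZ-4SA, about the level of P4ha2 there. With P4ha3 counted, the mean shares of P4ha1, P4ha2 and P4ha3 were 61.5%, 38.4% and 0.0978% in SMC-Ctrl and 52.6%, 23.4% and 24.0% in SMC-TAZ-4SA. The share of P4ha1 thus moved up without P4ha3 and down with it. P4hb, the protein disulfide isomerase that forms the beta subunit, rose from 177 ± 9.16 to 350.4 ± 27.1 FPKM (SD, n = 3 each; log2 fold change 0.98, limma adjusted p = 1.52e-05). P4hb per P4ha1 and P4ha2 was 5.67 to 6.18 in SMC-Ctrl and 5.71 to 6.20 in SMC-TAZ-4SA, which overlapped (exact permutation p = 0.5). With P4ha3 in the denominator it was 5.67 to 6.17 and 4.34 to 4.81, which did not.

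The genes around the enzymes were read from lists of the collagen pathway. Their counts stand beside 40.7% of all tested genes called higher, 39.7% called lower and a median log2 fold change of 0.02. Of 19 other collagen modifying and folding factors 17 were tested, of which 16 were higher and 1 lower, with a median log2 fold change of 1.88. Of the 17, 5 were below 1 FPKM in every SMC-Ctrl library and could not have been called lower, Sparc and Fkbp10 among them. Sparc, a secreted collagen-binding glycoprotein, was at 0, 0.0433 and 0.0731 FPKM in SMC-Ctrl and at 492, 434 and 436 FPKM in SMC-TAZ-4SA (limma adjusted p = 5.79e-11). Fkbp10, an endoplasmic reticulum chaperone whose loss lowers lysyl hydroxylation of telopeptides, rose from 0.0860 ± 0.0540 to 90.9 ± 6.38 FPKM, close to the level of Plod2. Ppib, the prolyl isomerase cyclophilin B, rose from 131 ± 9.42 to 261 ± 40.3 FPKM (SD, n = 3 each). Mia3, which helps export procollagen from the endoplasmic reticulum, was the exception, falling from 25.6 ± 0.668 to 21.4 ± 0.879 FPKM (limma adjusted p = 0.00422). Serpinh1, the collagen chaperone HSP47, did not reach the filter and was noticed only after its values were seen. It was listed at 0.0122, 0 and 0.0253 FPKM in SMC-Ctrl and at 0.140, 0.231 and 0.103 FPKM in SMC-TAZ-4SA. Values this low may be failed estimates, as for other genes of this table, and no absence of the transcript is read from them.

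The substrates of the enzymes were higher as well. Of 11 fibrillar collagen chains 10 were tested, 9 of them higher, and Col11a2 did not pass (log2 fold change 0.17, limma adjusted p = 0.0537). Col1a1, the major chain of type I collagen, was at 0.0106, 0.0193 and 0.0109 FPKM in SMC-Ctrl and at 249, 293 and 287 FPKM in SMC-TAZ-4SA. Its partner Col1a2, with 0 listed in each SMC-Ctrl library, was at 19.1, 19.2 and 20.6 FPKM in SMC-TAZ-4SA. The zeros, and with them the level of Col1a2, may be failed estimates, so its level is not compared with that of Col1a1. Col5a1 and Col5a2, chains of type V collagen, reached 144 ± 19.2 and 248 ± 5.04 FPKM (SD, n = 3 each). Of 14 network and other collagen chains 13 were tested and 13 were higher, including the type IV chains Col4a1, from 18.7 ± 0.830 to 144 ± 14.7 FPKM, and Col4a2, from 7.82 ± 0.405 to 65.2 ± 6.82 FPKM. Also higher were Col12a1, a fibril-associated chain, at 57.6 ± 11.8 FPKM in SMC-TAZ-4SA, and Col8a1, a network chain of vessel walls and the cornea, from 21.9 ± 0.243 to 41.7 ± 2.55 FPKM. The median log2 fold changes were 3.56 for the fibrillar and 3.03 for the network list, and 9 tested genes of each list were below 1 FPKM in every SMC-Ctrl library and could not have been called lower. Apart from Col11a2, the chains named here passed limma as higher at adjusted p of 3.12e-06 or less.

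The ratio of substrate to enzyme transcripts went in different directions by family. Summed FPKM of the listed collagen chains went from 53.7 ± 1.10 to 1181 ± 96.5 (SD, n = 3 each). This sum and the fibrillar sum below include Col1a2, whose values may be failed estimates. Its mean was 0 FPKM in SMC-Ctrl and 19.6 FPKM in SMC-TAZ-4SA. Per unit of prolyl 4-hydroxylase FPKM the chains went from 1.81 to 20.5, and per unit of lysyl hydroxylase FPKM from 1.97 to 6.75. Per unit of lysyl oxidase FPKM they moved the other way, from 195 to 2.59. The SMC-Ctrl value of that last ratio rests on a summed lysyl oxidase FPKM of 0.233 to 0.319, near 0. None of these ratios overlapped between groups, and each gave the smallest exact permutation p of 0.1. The prolyl 4-hydroxylase sum leaves out P4ha3. The chains also differed in kind between the groups. In SMC-Ctrl the network list summed to 49.4 to 51.8 FPKM and the fibrillar list to 2.878 to 3.245 FPKM. In SMC-TAZ-4SA the network list summed to 400 to 482 FPKM and the fibrillar list to 670 to 759 FPKM.

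Of 10 procollagen processing genes 4 were tested and 4 were higher, with a median log2 fold change of 4.67. Of these 4, 3 (Tll1, Pcolce and Pcolce2) were below 1 FPKM in every SMC-Ctrl library and could not have been called lower. Bmp1, the procollagen C-proteinase that also activates the Lox proenzyme, rose from 9.79 ± 0.805 to 57.6 ± 0.131 FPKM, and its relative Tll1 from 0.413 ± 0.0425 to 17.4 ± 1.91 FPKM (SD, n = 3 each). Pcolce, an enhancer of that proteinase, rose from 0.0635 ± 0.0124 to 132 ± 16.8 FPKM. Pcolce2, with 0 listed in each SMC-Ctrl library, was at 53.1, 48.1 and 46.9 FPKM in SMC-TAZ-4SA. Adamts2, Adamts3 and Adamts14, the N-proteinases, did not reach the filter.

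Of 19 elastic fibre genes and lysyl oxidase partners 16 were tested, 15 of them higher, with a median log2 fold change of 3.38. In this list 9 of the tested genes were below 1 FPKM in every SMC-Ctrl library and could not have been called lower. Fn1 encodes fibronectin, which binds Lox and promotes its activation, and rose from 10.8 ± 0.848 to 1041 ± 188 FPKM (SD, n = 3 each). Efemp2, fibulin-4, which brings Lox to tropoelastin, rose from 1.62 ± 0.207 to 104 ± 9.77 FPKM. Fbln2 rose from 0.139 ± 0.0328 to 206 ± 8.04 FPKM and Ltbp1, a latent TGF-beta binding protein, from 1.29 ± 0.0982 to 113 ± 2.31 FPKM. Eln, the elastin substrate itself, stayed below 1 FPKM in every library, at 0.214 to 0.313 FPKM in SMC-Ctrl and 0.841 to 0.916 FPKM in SMC-TAZ-4SA, and was not tested. Mfap2 did not pass (log2 fold change 0.22, limma adjusted p = 0.0751).

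**Figure D4:**
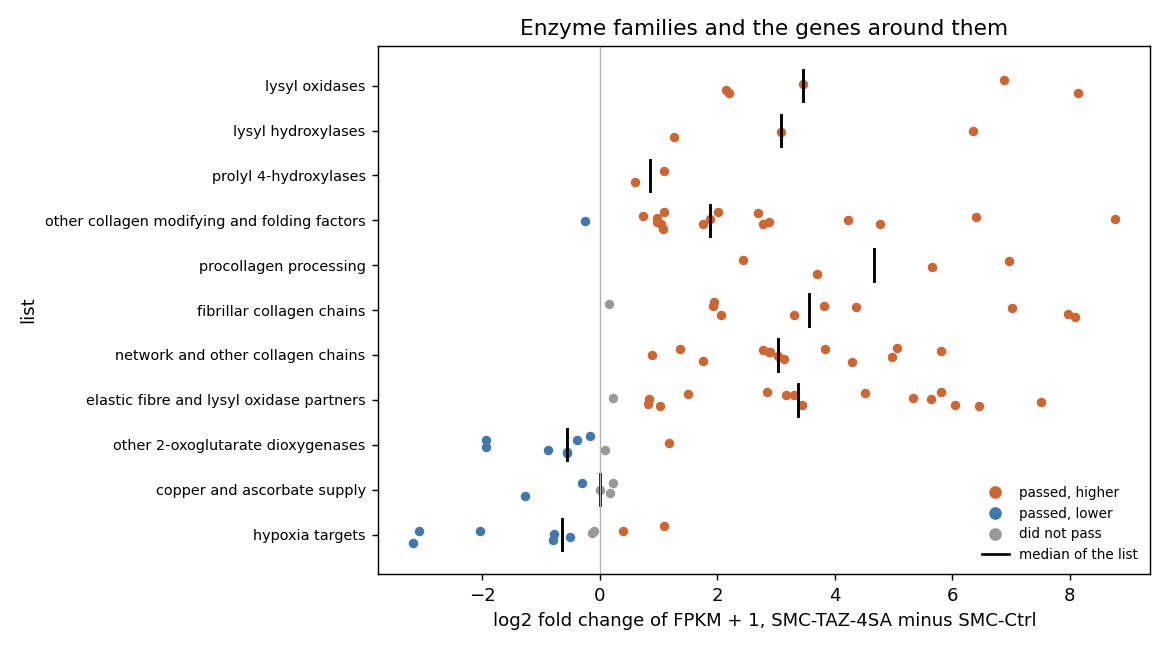
Log2 fold change (SMC-TAZ-4SA minus SMC-Ctrl, log2(FPKM + 1) scale) of each tested gene in the 3 enzyme families and 8 surrounding lists. Points are genes, coloured by whether they passed limma at 0.05 and in which direction, and black bars are list medians. The collagen lists lie to the right of 0 except for Mia3, whereas the 2-oxoglutarate dioxygenases outside the collagen pathway and the hypoxia targets lie mostly to the left.

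The hydroxylases belong to the larger class of 2-oxoglutarate dioxygenases, and most tested members outside the collagen pathway were lower in SMC-TAZ-4SA. Of 11 listed genes 9 were tested, 7 of them lower and 1 higher, with a median log2 fold change of -0.55. Over all tested genes 39.7% were called lower and 40.7% higher. Egln1 and Egln2, prolyl hydroxylases that mark the HIF alpha subunits for degradation, went from 32.8 ± 1.12 to 29.1 ± 1.89 FPKM (log2 fold change -0.17, limma adjusted p = 0.0445) and from 25.1 ± 1.38 to 19.0 ± 1.47 FPKM (SD, n = 3 each; log2 fold change -0.38, limma adjusted p = 0.00156). Asph, an aspartyl hydroxylase, went from 33.3 ± 0.683 to 22.6 ± 1.96 FPKM (limma adjusted p = 1.84e-04). Ogfod1, a ribosomal prolyl hydroxylase, was the higher one, from 5.35 ± 0.121 to 13.3 ± 0.121 FPKM (limma adjusted p = 2.29e-07), and Jmjd6 did not pass (limma adjusted p = 0.397).

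P4ha1, P4ha2, Plod2 and Lox are also known as genes induced by hypoxia, so the other hypoxia targets were read beside them. Of 12 listed genes, which include the HIF subunit Hif1a itself, 10 were tested, 6 of them lower and 2 higher, with a median log2 fold change of -0.64. With each of the other scalings of the libraries 8 were lower and 2 higher. The tested genes as a whole moved the same way. As deposited 4815 of 12141 (39.7%) were called lower. With the same total it was 5875, with the same upper quartile 5561 and with quantile normalization 5088. Ldha, the lactate dehydrogenase subunit, fell from 721 ± 58.4 to 422 ± 47.1 FPKM (limma adjusted p = 4.02e-04). Bnip3, a mitophagy receptor, fell from 80.9 ± 6.30 to 8.24 ± 1.90 FPKM (limma adjusted p = 1.96e-07). Vegfa, the endothelial growth factor, rose from 40.4 ± 1.91 to 87.7 ± 7.91 FPKM (limma adjusted p = 4.40e-06), and Ndrg1 from 51.2 ± 2.90 to 68.0 ± 2.50 FPKM (SD, n = 3 each; limma adjusted p = 6.64e-04).

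Promoter sequences of 5 of the 10 genes were at hand from RefSeq: Loxl4, P4ha1, P4ha2, Plod1 and Plod3. Lox, Loxl1, Loxl2, Loxl3 and Plod2 had none at hand and were not searched. Each sequence was the 250 bases before the start annotated by RefSeq (GRCm38.p6). For P4ha2 that start lies downstream of the GENCODE gene start given above, so its window is inside the GENCODE gene. They were searched on both strands for ACGTG, whose reverse complement reads CACGT. These letters are the A form of the core of the hypoxia response element. The windows were also searched for GGAATG, whose reverse complement reads CATTCC, the motif that TEAD factors bind. The first was found in 3 of the 5 windows, at position -16 in P4ha1, -78 in P4ha2 and -54 in Plod3 (first base of the match, counted back from the start). It occurs in 16.6% of all 32851 RefSeq windows of the same length. The second was found in 0 of the 5 windows and occurs in 12.6% of all windows. A match is a string of letters and not a measured site, and no match says only that the letters are not in this window. The other form of the hypoxia element core, GCGTG, was not searched for, so no window is said to lack that core. The 3 windows with a match are shown because they hold the letters of the element beside whose target genes the hydroxylases were read, 5′ to 3′ on the strand of the gene, with the match in capitals. They lie at chr10:59323046-59323295 (plus strand), chr11:54100674-54100923 (plus strand) and chr5:136986769-136987018 (plus strand).
P4ha1: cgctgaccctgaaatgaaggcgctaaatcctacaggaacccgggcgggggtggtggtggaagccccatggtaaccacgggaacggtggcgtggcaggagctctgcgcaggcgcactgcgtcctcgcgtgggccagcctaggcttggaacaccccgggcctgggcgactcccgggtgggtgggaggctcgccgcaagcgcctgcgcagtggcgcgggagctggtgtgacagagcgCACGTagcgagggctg
P4ha2: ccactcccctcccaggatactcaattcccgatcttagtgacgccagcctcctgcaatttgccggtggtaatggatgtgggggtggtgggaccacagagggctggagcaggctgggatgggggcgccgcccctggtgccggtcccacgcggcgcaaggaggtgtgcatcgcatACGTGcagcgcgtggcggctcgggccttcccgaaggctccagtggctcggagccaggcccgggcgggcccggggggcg
Plod3: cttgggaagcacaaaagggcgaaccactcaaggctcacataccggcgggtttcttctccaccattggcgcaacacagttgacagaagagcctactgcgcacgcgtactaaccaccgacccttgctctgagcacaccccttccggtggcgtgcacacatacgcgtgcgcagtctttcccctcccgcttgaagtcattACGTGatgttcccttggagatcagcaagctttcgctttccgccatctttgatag

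Markers of other cell types were compared because fibroblasts and smooth muscle cells express these enzymes strongly. In bulk RNA, fewer cells of a type and less RNA per cell cannot be told apart. Summed FPKM of 6 smooth muscle and pericyte markers was 0.143 to 0.173 in SMC-Ctrl and 784 to 959 in SMC-TAZ-4SA. Acta2 made up most of it, with 0 listed in each SMC-Ctrl library and 926, 777 and 753 FPKM in SMC-TAZ-4SA, and Cnn1 and Cspg4 also passed as higher. The smooth muscle markers Myh11 and Des stayed at or below 0.0404 and 0.0639 FPKM in all 6 libraries. Rgs5, also below the filter, was listed at 0 in each SMC-Ctrl library and at 0.147 to 0.483 FPKM in SMC-TAZ-4SA. Summed FPKM of 8 fibroblast markers was 1.70 to 2.04 in SMC-Ctrl and 17.2 to 20.1 in SMC-TAZ-4SA. Only 2 of these 8 reached the filter, Thy1 and Pdpn, both higher. Dcn, Lum and Fap were at or below 0.0612 FPKM in every SMC-TAZ-4SA library and Tcf21 was listed at 0 in all 6. Pdgfra and Dpt, also below the filter, had higher values in SMC-TAZ-4SA. Pdgfra was at 0.285 to 0.394 FPKM in SMC-Ctrl and 0.653 to 0.931 FPKM in SMC-TAZ-4SA. Dpt was listed at 0 in SMC-Ctrl and at 0.0844 to 0.203 FPKM in SMC-TAZ-4SA. The leukocyte marker Ptprc was at or below 0.0395 FPKM, while Csf1r was listed at 0 in SMC-Ctrl and at 2.97 to 3.39 FPKM in SMC-TAZ-4SA. Of 6 endothelial markers 2 were tested, Kdr higher and Vwf lower. Which cells hold the transcripts of the markers that rose was not tested, nor was the part of those cells in the enzyme levels.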

How the data were processed

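RNA-seq was done on 3 SMC-Ctrl and 3 SMC-TAZ-4SA libraries, grouped by the sample titles. The study's data statement lists the series as SMC against non-SMC cells; titles and design text were followed, and the difference is not resolved here. TRIzol-extracted total RNA was sequenced as read pairs and mapped to mm10, with STAR 2.6 named in the submitters' processing notes. FPKM is the unit the authors deposited, scaled for transcript length and mapped fragments. For the FPKM tool, the annotation and strand use, the answer is: not given in the sources used here. The table held 23847 lines; 254 symbols on several lines were not tested. Exact zeros can be failed estimates, since 0 is listed throughout for the ribosomal protein genes Rps12 and Rps28.

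Genes with at least 1 FPKM in at least 3 libraries (12141) were compared as log2(FPKM + 1) with limma 3.58.1 in R 4.3.3 (group only, mean-variance trend, 2-sided, Benjamini-Hochberg over all tested genes, threshold 0.05). The study's methods name a count model, which FPKM do not allow. The fit was tested on simulated data with 200 changed genes. That is far fewer than the 9754 called here, so the simulation does not show how the fit behaves in this setting. Sums, shares and ratios were compared with the exact 2-sided permutation test (scipy 1.17.1). Absolute depth is unknown. Steps among low values gave relative depths, with SMC-Ctrl replicate 1 set at 1, that were 1.09 and 0.967 for SMC-Ctrl replicates 2 and 3. For SMC-TAZ-4SA they were 0.959, 0.845 and 0.712. Positions are from GENCODE M21 (GRCm38). The 10 genes and all lists were chosen with earlier results of these data known. In each surrounding list the 4 tested genes with the highest group mean and each gene called against the majority were named. P4ha3, Serpinh1, Atp7b, Hif1a, Col11a2, Eln, Mfap2 and the Adamts genes were singled out after their values were seen. A further label check gene is not reported here. The alternatives were 14 other settings: another pseudocount, filter, scaling or fit, and each library left out.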

Additional observations from a re-analysis of the deposited data

How the results depend on the processing

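All 10 enzyme genes kept their direction and passed limma at 0.05 under each of the 14 alternatives. The log2 fold change of Lox ranged from 7.94 to 10.49, the latter with a pseudocount of 0.1, that of Loxl1, the most dependent on the pseudocount, from 2.06 to 4.99, and that of P4ha2 from 0.40 to 0.68, with a highest adjusted p of 0.00271. With 1 library left out in turn, Lox ranged from 8.07 to 8.28 and P4ha2 from 0.53 to 0.68. Scaling to the same total FPKM moved the median of all tested genes to -0.18 and to the same upper quartile to -0.12. The number of all tested genes called ranged from 9111 to 11853, the highest without a filter on low values. Genes of the surrounding lists called numbered 72 to 86, where 84 were tested as reported and more without the filter. Replicate numbers in the titles did not pair the libraries: deviations of same-numbered libraries correlated at -0.25, -0.06 and -0.31. Between differently numbered libraries the correlations ranged from -0.296 to 0.389. The highest was for SMC-Ctrl replicate 3 with SMC-TAZ-4SA replicate 1. A batch shared across numbers was not tested. With the replicate number as a block, 9350 genes were called (4735 higher, 4615 lower) and the 10 enzyme genes all remained called. With 1 library left out the exact permutation test cannot go below 0.2, so it cannot pass there, and the sums and shares are descriptions. The SMC-Ctrl values of Loxl1 lie within a few steps of 0 and are the least precise of the 10 genes; absolute depth is unknown.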

Other observations

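The genes whose levels over the 6 libraries lay nearest to those of Lox, by Euclidean distance of log2(FPKM + 1), were Tnc (0.33), Col1a1 (0.45) and Ankrd1 (0.57). Tnc, which encodes the matrix glycoprotein tenascin-C, was at 259, 318 and 324 FPKM in SMC-TAZ-4SA and at 0.00681, 0 and 0 FPKM in SMC-Ctrl. Ankrd1, a known target of YAP and TAZ, was at 350.3, 316 and 302 FPKM in SMC-TAZ-4SA and was listed at 0 in SMC-Ctrl. The likeness is mainly that of genes near 0 in a whole group, and it is a description over 6 libraries.

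Genes that supply copper and ascorbate, cofactors of the enzymes, were read as a list of 7. Of these 5 were tested, 0 higher and 2 lower by limma, with a median log2 fold change of 0.01. The counts were the same at an unadjusted p under 0.05. Over all tested genes 39.7% were called lower and 40.7% higher by adjusted p. The share called lower is thus near the background, and nothing is read from these counts. The copper importer Slc31a1 went from 18.7 ± 0.333 to 15.0 ± 0.680 FPKM (SD, n = 3 each; limma adjusted p = 0.00143), and the copper pump Atp7b from 1.53 ± 0.195 to 0.0504 ± 0.0166 FPKM (limma adjusted p = 3.71e-07). Atp7a, which loads copper onto secreted enzymes including the lysyl oxidases, averaged 3.63 ± 0.102 in SMC-Ctrl against 4.23 ± 0.628 FPKM in SMC-TAZ-4SA, short of the threshold (log2 fold change 0.17, limma adjusted p = 0.123). Nor did the copper chaperone Atox1 (log2 fold change 0.01, limma adjusted p = 0.974) or the ascorbate transporter Slc23a2 (log2 fold change 0.23, limma adjusted p = 0.0701). Under quantile normalization Atp7a and Slc23a2 passed as higher and Atox1 as lower, so 2 were higher and 3 lower.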
